A study of Mus musculus with 7 samples.

Results

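The genes considered here mark the mural cells of blood vessels, the smooth muscle cells of larger vessels and the pericytes that wrap capillaries. They were Acta2, Tagln, Myh11, Cnn1, Des, Cspg4, Pdgfrb, Rgs5, Mcam and Notch3, and every probe of the deposited value table annotated with one of these symbols was taken. The annotation gave 9 of the 10 genes a probe, 11 probes in all, out of 14739 named genes and 23978 probes. No probe is listed for Rgs5, a regulator of G-protein signalling expressed by pericytes, in the annotation used here, so it was not analysed. Of the 11 probes, 6 lay above the background limit on all 7 arrays, and these represent 5 genes, Acta2, Cspg4, Pdgfrb, Mcam and Notch3.

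Tumours grew in male BALB/c mice, whose age the labels give as 10 weeks, after J558 cells were placed under the skin at the back of the neck. J558 is a mouse myeloma line that secretes IgA, so both groups carried the same tumour and ate the same chow, and they differed in their drink. The OPP group (3 arrays) drank oil palm phenolics, a water-soluble extract of oil palm, at 1500 ppm gallic acid equivalents, and the control group (4 arrays) drank distilled water, for 4 weeks. Each array held tumour RNA of 1 sample, chosen for high RNA integrity, and outlying arrays had been removed by clustering. The labels do not tie an array to a mouse, and every p-value therefore rests on the scatter among these arrays, which may be technical.

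Contractile smooth muscle is built around a set of cytoskeletal proteins whose genes are switched on by serum response factor (SRF) and its partner myocardin, through CArG boxes in their promoters. Pericytes carry fewer of these filaments and are recognised by surface proteins, chiefly the receptor for platelet-derived growth factor (PDGF) made by endothelial cells, the Notch receptor Notch3 and the proteoglycan NG2. In tumours, pericytes cover new capillaries unevenly, and alpha smooth muscle actin is also made by activated fibroblasts, so no single gene here belongs to mural cells alone.

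RefSeq promoter windows on the GRCm38.p6 build, from 250 bases before to 50 after the gene start used by that table, were at hand for 7 of the 10 genes, Acta2, Cnn1, Des, Cspg4, Rgs5, Mcam and Notch3. The windows of Acta2 (chr19:34255324-34255623, minus strand) and Mcam (chr9:44134408-44134707, plus strand) are shown because these were the members with the most alike array patterns. Capitals mark 2 CArG boxes with 1 inner base other than A or T, and the word TGGGAA, the core to which the Notch partner RBPJ binds.
Acta2: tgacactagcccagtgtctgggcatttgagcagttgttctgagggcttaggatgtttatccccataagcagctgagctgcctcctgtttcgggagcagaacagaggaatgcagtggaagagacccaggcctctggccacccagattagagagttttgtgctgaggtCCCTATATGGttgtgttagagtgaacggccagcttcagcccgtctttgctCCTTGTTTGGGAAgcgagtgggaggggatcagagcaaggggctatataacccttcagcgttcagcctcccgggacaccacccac
Mcam: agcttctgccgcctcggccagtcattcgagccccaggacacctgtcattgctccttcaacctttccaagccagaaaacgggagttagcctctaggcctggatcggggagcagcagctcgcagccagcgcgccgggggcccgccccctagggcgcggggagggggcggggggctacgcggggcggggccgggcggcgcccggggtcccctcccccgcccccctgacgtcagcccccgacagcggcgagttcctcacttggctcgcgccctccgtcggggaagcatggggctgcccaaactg

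The Acta2 boxes spanned positions 167 to 176 and 217 to 226 of the window, counted from its 5′ end. The TGGGAA word spanned positions 224 to 229 and overlapped the second box by 3 bases. The Mcam window and the other 5 windows held neither motif on either strand. Among all 32851 windows of 300 bases in the table, 9.98% held a CArG box of this relaxed kind, 1.63% held one with A or T at every inner base and 25.6% held TGGGAA. These matches are a description of the letters in the windows.

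Signals are normalised intensities on a linear scale with the background subtracted, and the limit above which a probe counted as detected was 20.7 to 26.7 signal units, highest on OPP replicate 2. On the 7 arrays, 10643 to 11258 probes (44.4 to 47.0%) lay above it. The comparison of OPP with control by limma covered 10366 probes. By limma with Benjamini-Hochberg adjustment 0% of them differed at an adjusted p under 0.05 (smallest adjusted p = 0.110), 5.81% were higher and 3.55% lower in OPP tumours at an unadjusted p under 0.05, and the groups did not overlap for 5.9% in the higher and 3.79% in the lower direction. The methods' t-test called 0 probes after the same adjustment and 908 without it. The median log2 change of all tested probes was 0.01, and 51.7% of them were above 0. Without control replicate 1, 742 probes were lower at an unadjusted p under 0.05, against 368 with all 7 arrays, so the share in the lower direction depended on that array.

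The 5 detected genes all had higher mean signals in OPP tumours, with log2 differences of 0.09 to 0.67 and a median of 0.16, but 0 of their 6 probes differed at an adjusted or an unadjusted p under 0.05 by limma, and 0 of the 5 genes by the methods' t-test. The groups overlapped for all 6 probes. Of the contractile and cytoskeletal genes, only Acta2 was detected on every array. Tagln, Myh11 and Cnn1 were at background in every sample, so the detected part of the set was alpha smooth muscle actin and the surface receptors of pericytes. Because the samples are whole tumours, a difference in the number of mural cells and one in RNA per cell cannot be told apart.

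Acta2 encodes alpha smooth muscle actin, the contractile actin of smooth muscle. Its brighter probe gave signals of 218.5, 109.9 and 208 in OPP tumours (replicates 1 to 3), against 178.9, 88.1, 77.3 and 108.7 in control tumours (replicates 1 to 4). OPP replicates 1 and 3 stood above every control array, while OPP replicate 2 lay among them, below control replicate 1. The mean was 179 ± 59.9 in OPP and 113 ± 45.7 in control tumours (SD, n = 3 and 4 arrays), which is a log2 difference of 0.67 (SE 0.34), or 1.59-fold with a 95% interval of 0.913 to 2.78. The difference was not significant by limma with Benjamini-Hochberg adjustment (adjusted p = 0.579) or by the exact permutation test (two-sided p = 0.114), which has 35 possible splits and cannot go below 0.0571 with 3 against 4 arrays. The value leaned on single arrays. Without OPP replicate 2 the log2 difference was 0.99 (limma unadjusted p = 0.0215, adjusted p = 0.507), and without control replicate 1 it was 0.92 (limma unadjusted p = 0.0164, adjusted p = 0.322). Without control replicate 3 it was 0.51, and without OPP replicate 1 it was 0.50.

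A dimmer Acta2 probe gave 58.7, 40.2 and 49.3 in OPP tumours and 58.8, 43.1, 26 and 44.3 in control tumours. Here the highest signal was on control replicate 1, level with OPP replicate 1, and the lowest was on control replicate 3, as for the brighter probe. The log2 difference was 0.24 (SE 0.27; limma adjusted p = 0.794; exact permutation p = 0.571). Both probes of the gene thus had positive differences, and neither passed the test.

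Among the detected members, Acta2 was also the most variable between samples. The SD of its log2 signal over the 7 arrays was 0.61, and 5.08% of tested probes had a larger one, against a median SD of 0.20 over all tested probes. Its signals spanned 1.99-fold within the OPP group and 2.31-fold within the control group from the lowest to the highest array. The 1.59-fold difference is one of group means, so its size is not directly comparable with these ranges. Cspg4 was the least variable of them, with an SD of 0.16, and the SD was 0.20 for Pdgfrb, 0.20 for Mcam and 0.34 for Notch3.

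**Figure D1:**
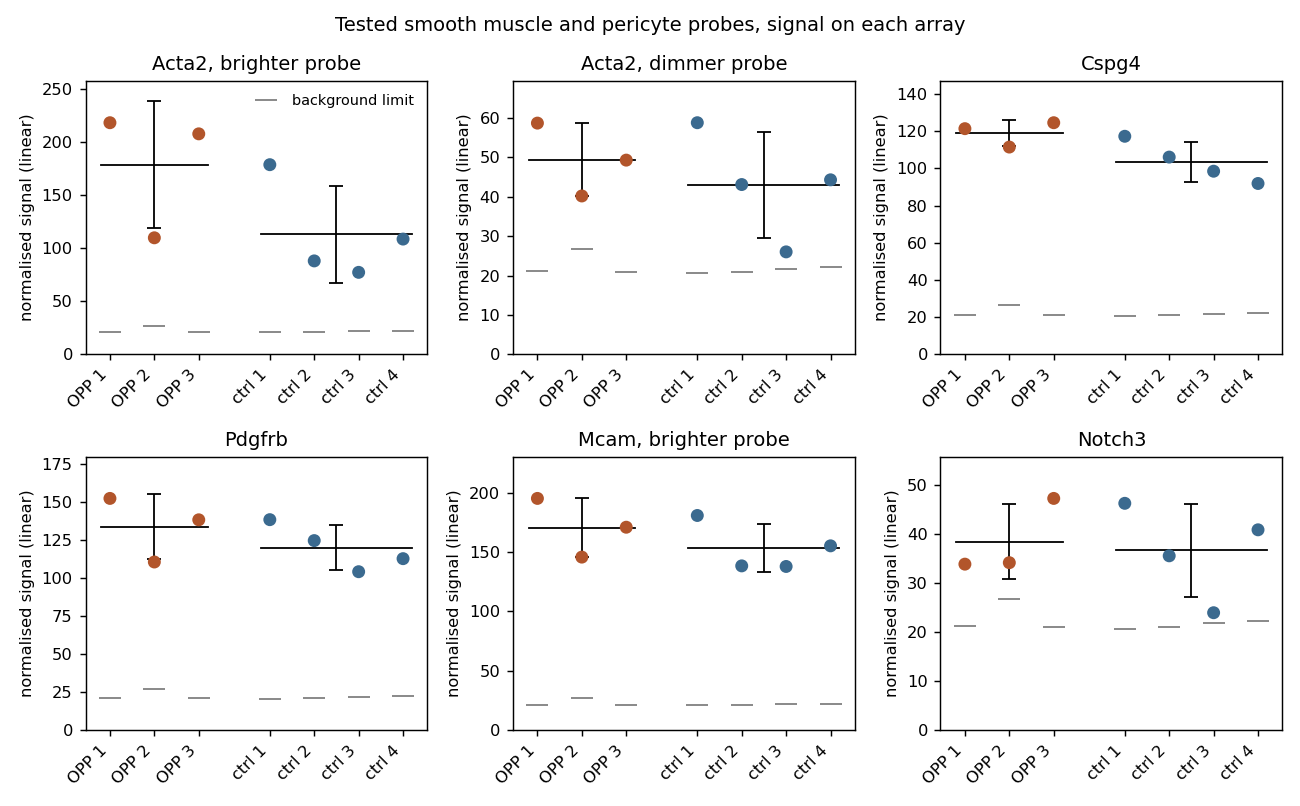
Signal of each tested member probe on each array (linear vertical axis from 0, normalised signal units), with OPP arrays on the left of each panel in orange and control arrays on the right in blue. Black lines and bars are group means and SD (n = 3 OPP and 4 control), and grey ticks mark the background limit of each array. The groups overlap in all 6 panels, and control replicate 1 is the highest control array in each of them.

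The other contractile genes were below the limit. Tagln encodes transgelin (SM22), an actin-binding protein of smooth muscle, and read 0.2, −7.2 and 1.9 in OPP tumours and 8.3, −0.8, −3.8 and 4.9 in control tumours. Myh11, the smooth muscle myosin heavy chain and the gene most restricted to that cell type, read 12.4, 4.2 and 7.2 in OPP tumours and 8.8, 11.4, 6.1 and 17 in control tumours. Neither probe reached the limit on any array, and no fold change is given for them. Cnn1, which encodes the actin-binding protein calponin, read −3.6, 2.4 and −0.4 in OPP tumours and −14.7, −9.4, −9.2 and −7.5 in control tumours. These Cnn1 groups do not overlap, but every value lies below the limit, and a value below 0 is a probe dimmer than the subtracted background, so no order is read from them. The probes of Tagln, Myh11 and Cnn1 therefore gave no signal above background in these tumours. In the wider list of contractile genes given below, Lmod1, Synpo2, Pln and Kcnmb1 were also below the limit on every array. Other genes of that list, such as Myl6 and Tpm1, were above it on every array.

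Des encodes desmin, the intermediate filament of muscle, which pericytes also carry and which is most abundant in skeletal and cardiac muscle. It read 5.1, 15.3 and 13.4 in OPP tumours, below the limit on 3 of 3 arrays, and 14.8, 18.5, 25.6 and 42.3 in control tumours, above the limit on 2 of 4 arrays (replicates 3 and 4). The means were 11.3 ± 5.42 in OPP and 25.3 ± 12.2 in control tumours (SD, n = 3 and 4), and the groups overlapped at 15.3 and 14.8. Because most arrays lay below the limit, no fold change is given. The 2 control arrays on which Des passed the limit were those with the highest summed signal of skeletal muscle genes. Its part in the Des values was not tested.

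**Figure D2:**
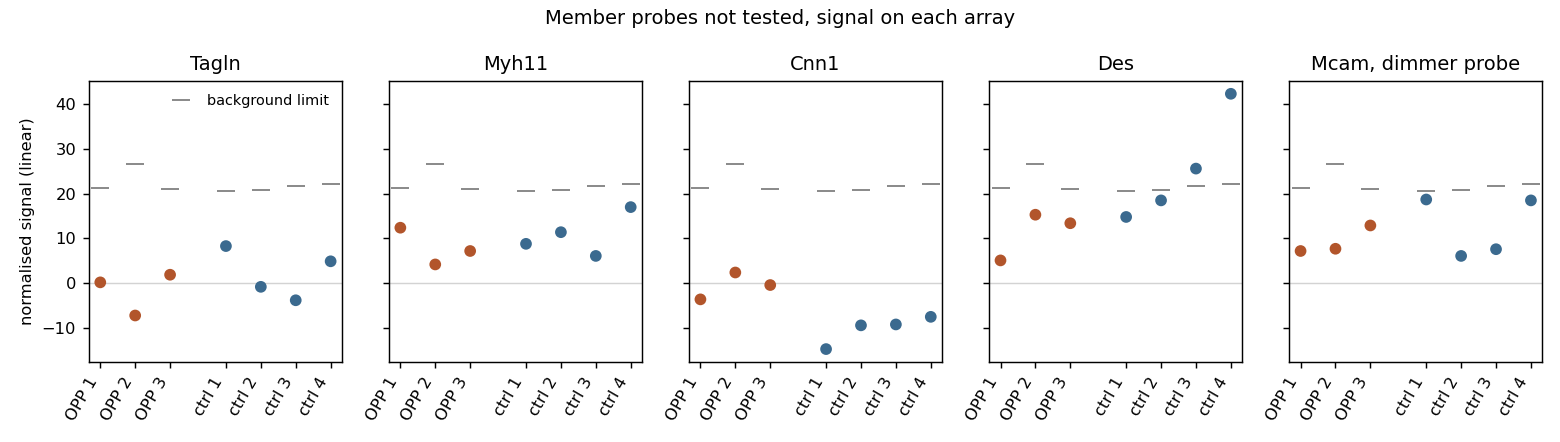
Signal of the 5 member probes that were not tested, on each array (linear vertical axis, normalised signal units), with OPP arrays on the left in orange and control arrays on the right in blue. Grey ticks mark the background limit of each array, which only Des passes, on control replicates 3 and 4.

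Among the receptors, Pdgfrb encodes PDGF receptor beta, through which endothelial PDGF-B recruits pericytes to vessels. Its signals were 152.6, 110.7 and 138.5 in OPP tumours and 138.6, 124.8, 104.3 and 112.9 in control tumours. OPP replicate 1 was the highest of the 7 arrays and control replicate 3 the lowest, while OPP replicate 3 and control replicate 1 were level. The means were 134 ± 21.3 in OPP and 120 ± 14.9 in control tumours (SD, n = 3 and 4), with a log2 difference of 0.15 (SE 0.15, 95% interval −0.19 to 0.50; limma adjusted p = 0.770; exact permutation p = 0.457). It moved with single arrays, to 0.05 without OPP replicate 1, 0.28 without OPP replicate 2 and 0.09 without control replicate 3.

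Notch3 encodes the Notch receptor that arterial smooth muscle and pericytes need to mature. It read 33.8, 34.1 and 47.2 in OPP tumours and 46.2, 35.5, 23.9 and 40.8 in control tumours, above the limit on every array. Control arrays spanned the whole range apart from OPP replicate 3. The log2 difference was 0.09 (SE 0.24, 95% interval −0.46 to 0.65; limma adjusted p = 0.914; exact permutation p = 0.857). Its sign rested on 1 array of each group, turning to −0.10 when control replicate 3 was left out and to −0.07 when OPP replicate 3 was.

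Cspg4 encodes NG2, a chondroitin sulphate proteoglycan on the pericyte surface. Its signals were 121.4, 111.5 and 124.6 in OPP tumours and 117.3, 106.1, 98.5 and 91.9 in control tumours. OPP replicates 1 and 3 lay above all control arrays, and OPP replicate 2 lay between control replicates 1 and 2. The means were 119 ± 6.83 in OPP and 103 ± 10.9 in control tumours (SD, n = 3 and 4), with a log2 difference of 0.21 (SE 0.11, 95% interval −0.05 to 0.47; limma unadjusted p = 0.0989, adjusted p = 0.591; exact permutation p = 0.114). Without control replicate 1 the log2 difference was 0.27, and the unadjusted limma p was then 0.0432 (adjusted p = 0.402).

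Mcam encodes CD146, an adhesion molecule of pericytes, smooth muscle and endothelium. Its brighter probe read 195.3, 145.8 and 171 in OPP tumours and 180.9, 138.4, 137.9 and 155.3 in control tumours. The highest array was OPP replicate 1, followed by control replicate 1, and control replicates 2 and 3 were the lowest. The means were 171 ± 24.8 in OPP and 153 ± 20.2 in control tumours (SD, n = 3 and 4), with a log2 difference of 0.16 (SE 0.14, 95% interval −0.18 to 0.49; limma adjusted p = 0.753; exact permutation p = 0.4). It was 0.05 without OPP replicate 1, 0.26 without OPP replicate 2 and 0.24 without control replicate 1. The dimmer Mcam probe read 7.2, 7.7 and 12.9 in OPP tumours and 18.7, 6.1, 7.6 and 18.5 in control tumours, below the limit on every array, and gives no level.

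**Figure D3:**
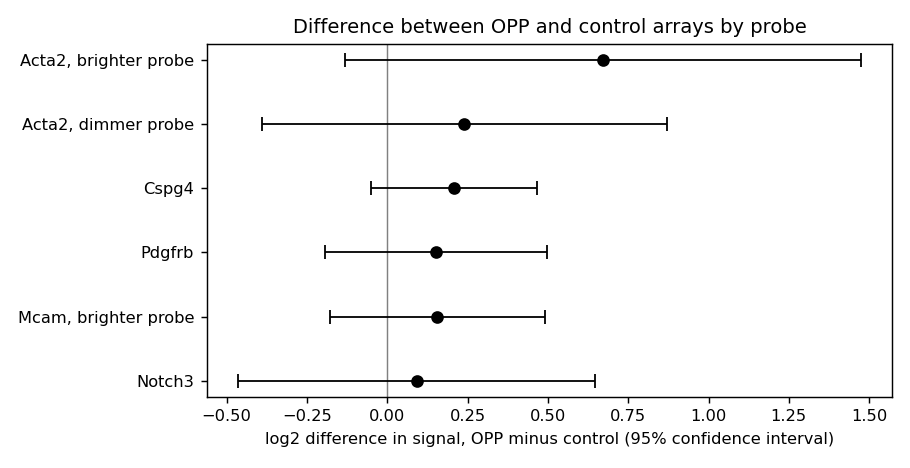
Log2 difference in signal (horizontal axis, OPP minus control) for the 6 tested member probes, with 95% confidence intervals from limma (3 OPP and 4 control arrays). All 6 points lie right of 0, between 0.09 and 0.67, and all 6 intervals include 0.

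The members shared an order of arrays that cut across the groups. Control replicate 1 had the highest control signal for 6 of 6 tested probes, control replicate 3 the lowest signal of all 7 arrays for 5 of 6, and OPP replicate 2 the lowest OPP signal for 5 of 6. Of these 6 probes, 2 are of Acta2. The share of all tested probes with the same order was not worked out, so the order is not shown to be particular to the members. The likeness of 2 members was described by Pearson's r of their log2 signals over the 7 arrays, which share these samples and their normalisation, with no test. It was 0.949 for Acta2 with Mcam (Spearman's rho 0.929) and 0.967 after leaving out the 2 arrays farthest from the median of Acta2. For Acta2 with Pdgfrb it was 0.890 (rho 0.821, 0.765 without those arrays), for Pdgfrb with Mcam 0.874 (rho 0.893) and for Acta2 with Cspg4 0.815 (rho 0.857, 0.606 without those arrays). Notch3 had r of 0.425 to 0.641 to the other 4 genes, and this depended on the arrays, since r without the 2 arrays farthest from the partner gene's median was 0.836 with Acta2, 0.779 with Pdgfrb, 0.833 with Mcam and 0.522 with Cspg4.

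For each detected member, the 3 named genes with the most alike signals over the 7 arrays were sought among 7187 others. Mcam was closest to Higd1b, a mitochondrial protein gene found in pericytes (r = 0.983), Cdh5, the endothelial VE-cadherin (r = 0.981), and Col4a2, a collagen chain of basement membranes (r = 0.970). Higd1b and Cdh5 were themselves in the pericyte and endothelial lists described next. Acta2 was closest to Thbs2, a secreted matrix glycoprotein (r = 0.979), Eaf2, a transcription elongation factor (r = 0.965), and Slc40a1, the iron exporter ferroportin (r = 0.957). Cspg4 was closest to Cd276, an immune checkpoint protein of the B7 family (r = 0.979), Hyal3, a hyaluronidase family gene (r = 0.975), and Tmem63a, a membrane channel (r = 0.968). Pdgfrb was closest to Tprkb, of the complex that modifies transfer RNA (r = 0.956), Slc38a9, a lysosomal amino acid transporter (r = 0.954), and Ptgr1, a prostaglandin reductase (r = 0.929). Notch3 was closest to Mrpl43, a mitochondrial ribosomal protein (r = 0.975), Emc4, of the membrane protein complex of the endoplasmic reticulum (r = 0.971), and Tspyl2, a nuclear protein of the nucleosome assembly family (r = 0.969). With r above 0.9 there were 13 genes for Acta2, 42 for Cspg4, 11 for Pdgfrb, 13 for Mcam and 30 for Notch3. Because the named genes were picked as the highest among 7187 over only 7 arrays, a high r comes partly from the choice itself. How many genes pass 0.9 by chance was not worked out, so these counts and names are a description.

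Other genes of the same cells and pathways were given the same comparison. Of 21 other smooth muscle contractile genes, 17 had a probe and 12 were tested, each above the limit on all 7 arrays, 7 with a log2 difference above 0 and 5 below, with a median of 0.02 against 0.01 over all tested probes. Tpm2, a tropomyosin of slow and smooth muscle, was the only one at an unadjusted p under 0.05, with signals of 286.9, 203.8 and 151 in OPP and 317.7, 260.4, 322.6 and 397.2 in control tumours (log2 −0.63, SE 0.23; limma adjusted p = 0.485). A second Tpm2 probe read 3, 159.6 and 33.3 in OPP and 269.5, 344.7, 662.8 and 1273.9 in control tumours, the order of the skeletal muscle genes. Next by p were Sncg, a synuclein (log2 −0.67, limma adjusted p = 0.617), and Aoc3, an amine oxidase of smooth muscle and adipocytes (log2 −0.23, limma adjusted p = 0.651).

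Of 18 other pericyte and mural genes, 16 had a probe and 8 were tested, 5 above 0 and 3 below, with a median log2 difference of 0.17 and 0 at an unadjusted p under 0.05. The smallest p belonged to the partner subunits of the vascular potassium channel, Abcc9 and Kcnj8. Abcc9 read 43.6, 32.8 and 27.7 in OPP and 43.1, 20.8, 23.1 and 9.7 in control tumours (log2 0.68, SE 0.44; limma adjusted p = 0.660). Kcnj8 read 49.4, 29.9 and 23.5 in OPP and 45.3, 16.1, 25.2 and 7.6 in control tumours (log2 0.66, SE 0.50; limma adjusted p = 0.701). Both were above the limit on 3 of 3 OPP and 2 of 4 control arrays, so they entered the test through the OPP group, and both were lowest on control replicate 4.

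Of the 12 factors around SRF and myocardin, 10 had a probe and 5 were tested, 1 above 0 and 4 below, with a median of −0.14. None of the 3 probes of Myocd, myocardin itself, was tested. Srf, the factor that binds the CArG box, read 396, 403 and 355.9 in OPP and 465.1, 478.6, 497.9 and 443.6 in control tumours. The groups did not overlap, with a log2 difference of −0.29 (SE 0.09; limma unadjusted p = 0.0141, adjusted p = 0.441). Klf4, a repressor of contractile genes, read 31, 76.7 and 22.8 in OPP and 41.1, 74.7, 72.3 and 132.4 in control tumours (log2 −0.96, SE 0.49; limma adjusted p = 0.580).

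Of the PDGF ligands and the partner receptor, 4 of 5 were tested, 1 above 0 and 3 below, with a median of −0.08 and 0 at an unadjusted p under 0.05. Pdgfa, a ligand, was above the limit on 2 of 3 OPP and 4 of 4 control arrays, so it entered the test through the control group (log2 −0.18, limma adjusted p = 0.806). Pdgfra, the receptor of fibroblasts, read 97.2, 206.2 and 136.1 in OPP and 117.4, 192.1, 76.5 and 320.3 in control tumours (log2 −0.13, limma adjusted p = 0.942). Of the 12 Notch ligands, receptors and targets, 4 were tested, 1 above 0 and 3 below, with a median of −0.02. Hes1, a Notch target, read 245.8, 223.8 and 158.1 in OPP and 170.1, 162.9, 167.9 and 157.3 in control tumours (log2 0.32, SE 0.15; limma adjusted p = 0.557). OPP replicates 1 and 2 were above every control array for Hes1, and OPP replicate 3 was not. Notch1 had a log2 difference of −0.12 (limma adjusted p = 0.826).

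Markers of other cell types also differed between the arrays, skeletal muscle the most. Of 17 skeletal muscle genes with a probe, 15 were tested, and 15 of 15 had a log2 difference below 0. The median was −3.82, a value that depends on the floor of 10, since 11 of the 15 genes were below the limit on at least 1 OPP array. At an unadjusted p under 0.05 there were 13, beside 3.55% of all tested probes in that direction. Those 11 entered the test only through the control arrays, so this count and the 15 of 15 had to lean that way. At an adjusted p under 0.05, 0 passed. Their summed signal was 1040, 6593 and 1573 in OPP and 8831, 12542, 22895 and 37622 in control tumours. Mybpc1, a myosin-binding protein, read −17.5, 5.5 and −12.5 in OPP tumours, below the limit on every array, and 33.2, 41.5, 38.2 and 67.5 in control tumours. With the OPP values taken at the limit, the signal was at least 1.90-fold lower in OPP tumours, a bound that was not tested. The limma test was of the difference with the floor of 10 (log2 −2.12, adjusted p = 0.110). Mybpc1 entered the test only through the control group, and its OPP values were all raised to the floor, so no OPP scatter enters this p. Actn2 and Tcap, both of the sarcomere Z-disc, were next, with limma adjusted p of 0.338 each. They too entered only through the control group, and their signals on OPP replicate 1 were raised to the floor.

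The skeletal muscle sum was lowest on OPP replicates 1 and 3, the arrays on which Acta2 was highest. Among control arrays it was lowest on replicate 1, the control array highest for all tested members. Des was highest on control replicates 4 and 3, where the sum was highest. Acta1, the skeletal muscle actin, named here after its values were seen, read 25.4, 2327.2 and 314.5 in OPP and 3407.8, 4642.4, 7254.8 and 11814.8 in control tumours, so its order was not that of Acta2. Actg2, the enteric smooth muscle actin, named for the same reason, read 204.3, 51.4 and 139.5 in OPP and 208.3, 68.6, 59.9 and 48.3 in control tumours, with the same 3 arrays on top as for Acta2. The brighter Acta2 probe read 108.7 on control replicate 4, the array highest for Acta1, and 218.5 on OPP replicate 1, the array lowest for Acta1. No probe sequences were held, and signal shared between the probes of different actin genes was not tested. The part of skeletal muscle RNA in the members' values was not tested.

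Endothelial markers, from the cells that mural cells cover, had a summed signal of 3092, 2620 and 2478 in OPP and 3108, 2434, 2133 and 2406 in control tumours. Control replicate 1 was the highest and control replicate 3 the lowest, as for the brighter Mcam probe within the control group. Of 8 tested, 6 were above 0 and 2 below, with a median of 0.12 and 0 at an unadjusted p under 0.05. Vwf, the von Willebrand factor, was above the limit on 2 of 3 OPP and 4 of 4 control arrays, so it entered the test through the control group, and had a log2 difference of −0.34 (limma adjusted p = 0.554). Pecam1, the adhesion molecule CD31, had a log2 difference of 0.19 (limma adjusted p = 0.650). The part of the endothelial content in the members' values was not tested.

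**Figure D4:**
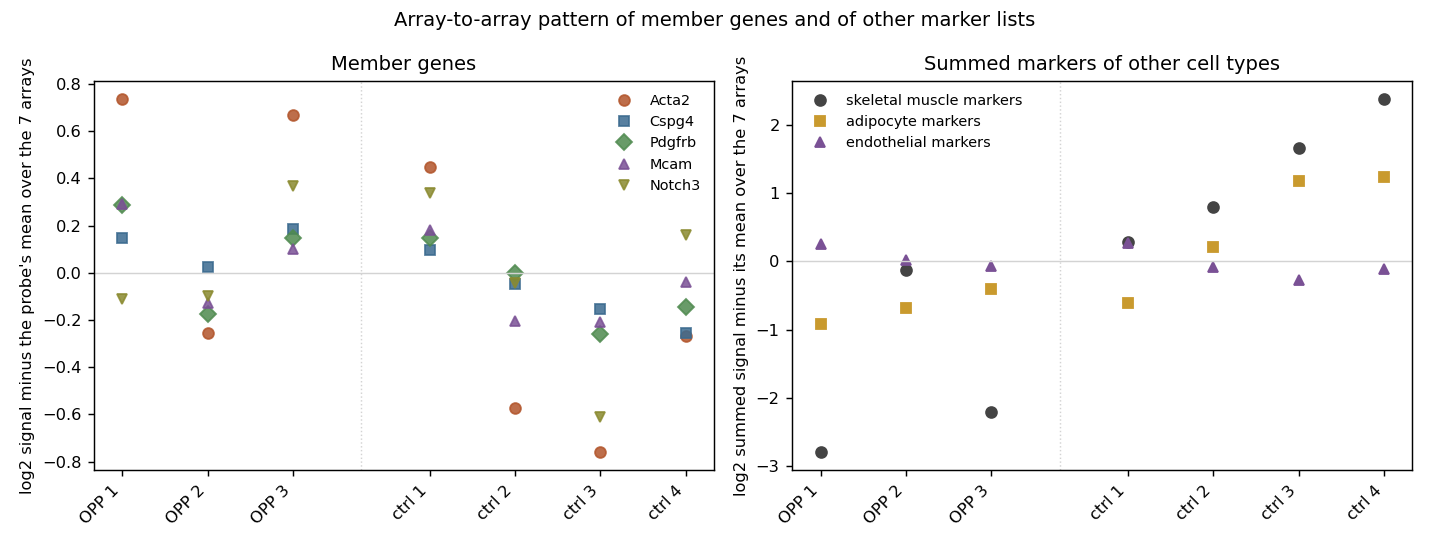
Left, log2 signal of each detected member (brighter probe) minus its own mean over the 7 arrays. Right, the log2 summed signal of the tested skeletal muscle, adipocyte and endothelial markers minus its mean over the 7 arrays. OPP arrays are left of the dotted line in each panel. Acta2 and the skeletal muscle sum spread the most in their panels, and OPP replicate 1 is highest for Acta2 and lowest for the skeletal muscle sum.

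Fibroblast and matrix markers summed to 7324, 6738 and 7651 in OPP and 8024, 9818, 7138 and 9895 in control tumours, with 4 of 11 tested genes above 0 and 7 below and a median of −0.14. Dpt, a dermal matrix protein gene, was the one at an unadjusted p under 0.05 (log2 −1.09, limma adjusted p = 0.485), and Dcn, the proteoglycan decorin, followed (log2 −0.73, limma adjusted p = 0.572). Adipocyte markers summed to 758, 888 and 1075 in OPP and 941, 1655, 3239 and 3360 in control tumours, and 4 of 4 were below 0 with a median of −1.06. Car3, a carbonic anhydrase abundant in fat and muscle, had a log2 difference of −1.64 (limma adjusted p = 0.463), and Adipoq, the hormone adiponectin, one of −1.49 (limma adjusted p = 0.478). Control replicate 1 was again the control array nearest to the OPP arrays in the skeletal muscle and adipocyte sums. Plasma cell markers, the type of the myeloma itself, summed to 45482, 48888 and 44873 in OPP and 44597, 45952, 49347 and 42911 in control tumours, with 3 of 8 above 0, 5 below and a median of −0.07. The smallest p among them belonged to Tnfrsf17, the survival receptor BCMA (log2 −0.36, limma adjusted p = 0.620), and Mzb1, a chaperone of antibody secretion. Mzb1 read 47.2, 55.2 and 9 in OPP and 42.7, 60.3, 111.7 and 35.1 in control tumours (log2 −0.93, limma adjusted p = 0.671). It was above the limit on 2 of 3 OPP and 4 of 4 control arrays, so it entered the test through the control group, and the low value of OPP replicate 3 was raised to the floor. A second probe of Sdc1, the plasma cell proteoglycan syndecan-1, named after its values were seen, read 235.3, 245.7 and 301.3 in OPP and 131.3 to 204.8 in control tumours (log2 0.61, limma unadjusted p = 0.00727, adjusted p = 0.379), while the probe used for the gene had a log2 difference of −0.08.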

How the data were processed

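Tumour RNA of 3 OPP and 4 control samples was hybridised to MouseRef-8 BeadChips, version 1, a single-colour array, with 7 arrays in all. The deposited values are linear intensities. The authors obtained them in BeadStudio 1.5.1.3, subtracted the background, removed outlying samples and applied rank invariant normalisation. Another deposited table, of signals before normalisation, was not used here, since its 14 columns (7 of signals and their detection scores) carry names that fit no sample.

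From 24048 probes, 66 without a value and 4 bacterial controls were left out. The platform annotation named 1 gene for 19343 of the remaining 23978 probes and none for 4635. Values under 10 were raised to 10, the floor of the methods, before log2. The background limit on each array was 2.33 SD of the noise (one-sided level 0.99), estimated from the values below 0. Probes above it on every array of at least 1 group were tested, which were 10366 (8866 named, 7188 genes). Groups were compared with limma 3.58.1 (lmFit, eBayes) under R 4.3.3, two-sided, with Benjamini-Hochberg adjustment across the 10366 probes. Single members also had an exact permutation test that doubles the smaller tail of the 35 splits. The code was tested on simulated data. Where a gene had several tested probes, the brightest stands for it. The Illumina custom error model of the methods was not held and not run. The number of arrays limits the precision.

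All 10 members were named. From each other list, the 2 to 4 genes with the smallest p were named, and for each detected member the 3 genes with the highest Pearson r. Members and lists were chosen with earlier results of these data known. The lists were other smooth muscle contractile genes, other pericyte and mural genes, SRF and myocardin factors, PDGF and Notch genes, and markers of endothelium, fibroblasts, skeletal muscle, adipocytes and plasma cells. Alternatives changed the normalisation (quantile or median scaling), the floor (50), the filter (none, or detection on all 7 arrays) and the variance prior (trended and robust). Others changed the array weights, the test (an unpaired Student's t-test), the pairing (a replicate block) and the summary of probes (their mean). Each array was also left out in turn. Tables and plots were made with Python 3.11.15, pandas 2.3.3, SciPy 1.17.1 and matplotlib 3.10.9.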

Additional observations from a re-analysis of the deposited data

Results flagged for a closer look

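Of the tested member probes and the named genes of the other lists, 46 sets of 4 control signals were checked for an array standing apart by Dixon's ratio at its 95% limit, and chance alone gives about 1 in 20. It was passed by 1, that of Aoc3, an amine oxidase of smooth muscle and adipocytes, with a ratio of 0.851. Aoc3 read 150.9, 104.1 and 121.5 in OPP tumours and 137, 138.9, 165.5 and 140.9 in control tumours, and the array apart was control replicate 3.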

How the results depend on the processing

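The log2 differences of Acta2, Cspg4, Pdgfrb and Mcam stayed above 0 under all 17 alternatives, and that of Notch3 did in 14 of 16, being −0.10 without control replicate 3 and −0.07 without OPP replicate 3 (0.22 at the highest when an array was left out). With a floor of 50, Notch3 gave no value. Changes of the filter, the variance prior or the test could not move these estimates, nor could that floor for the other genes. The mean of probes could move only that of Acta2. Where an estimate could not move, its sign was fixed in advance and adds nothing to these counts. The count of member genes at an unadjusted p under 0.05 was 0 with all arrays and 0 to 2 when an array was left out, 2 without control replicate 1 (Acta2 and Cspg4) and 1 without OPP replicate 2 (Acta2). Probes at an adjusted p under 0.05 by limma numbered 0 with all arrays, against 2 after quantile normalization, 2 with a floor of 50, 1 with the trended and robust prior and 0 to 4 when an array was left out (4 without OPP replicate 2, 1 without control replicate 4 and 1 without OPP replicate 1). The cause was not tested. Without control replicate 1, the unadjusted threshold was passed by 545 probes higher in OPP and 742 lower, against 602 and 368 with all arrays.

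Same-numbered arrays did not deviate together (r = −0.27, 0.08 and −0.17 for replicates 1, 2 and 3). Arrays with different numbers had r of −0.32 to 0.48. The numbers thus gave no sign of pairing, but 3 such values cannot exclude it. With the replicate number as a block, 0 probes passed at an adjusted p under 0.05, 683 did at an unadjusted p under 0.05, against 970 without it, and 0 member genes did. The log2 difference was then 0.68 for Acta2, 0.15 for Cspg4, 0.13 for Pdgfrb, 0.17 for Mcam and 0.16 for Notch3. These are the same estimates as without control replicate 4. No OPP array has that number, so the block takes that array out of the difference.

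With 3 and 4 arrays, the intervals of the 5 detected members reach from below 0 to 0.47 for Cspg4 and 1.48 for Acta2, so differences up to that size lie within the error. Signals below the limit, as for Tagln, Myh11 and Cnn1, do not show that a gene was absent.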
